A study of Mus musculus with 10 samples.

Results

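The sites described here were 177434 CG positions on the autosomes of mouse embryonic stem cells at which 5-carboxylcytosine (5caC) was listed in Tdg cells of both culture media and in wild-type (wt) cells of neither. They were chosen by the presence of a coverage value in the deposited table: a row for the serum-2i Tdg group, a row for the serum Tdg group, and no row for serum-2i wt or serum wt. They made up 19.4% of the 914758 autosomal positions listed in any group, and the table as a whole held 922427 positions. The sites are called shared Tdg-only sites below. By the same choice, chromosome X held 1089 such positions of 7386 listed in either Tdg group, and these were left out.

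The study mapped 5caC at single CGs in 10 samples, 5 groups of 2 technical replicates. The groups used were Tdg cells in serum-2i, Tdg cells in serum, wt cells in serum-2i and wt cells in serum, where both media held serum and LIF and serum-2i held in addition CHIR99021 at 3 µM, which blocks the kinase GSK3, and PD0325901 at 1 µM, which blocks the kinase MEK. Cells were grown without feeders on gelatin; the labels name the gene Tdg without the kind of alteration, the clone or the strain. The fifth group, serum-grown cells without the 3 Tet genes, served as the submitters' negative control and is not analysed here. Coverage of genomic DNA cannot check the Tdg label or the cell type, since it does not show which transcripts the cells make.

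TET enzymes oxidise 5-methylcytosine stepwise to 5-hydroxymethylcytosine, 5-formylcytosine and 5caC. Thymine DNA glycosylase (TDG) cuts out the last pair of bases in that chain, and base excision repair then puts back an unmodified cytosine. In cells without TDG activity 5caC is therefore not removed by this route, and it is known to build up at enhancers, gene bodies and promoters of embryonic stem cells. Inhibition of GSK3 and MEK holds such cells close to the naive state, in which DNA methylation is low across the genome.

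The table gave 1 coverage value per position and group, a multiple of 0.5 read as the mean of the 2 replicates, and it gave no value per replicate. No spread between replicates could be computed and no test was made, and the intervals below cover counting error only. The reads carried no molecular identifiers, so copies of 1 molecule count more than once, and a read can cover several CGs. The intervals treat every count as separate, so they are too narrow even for counting error. This holds also for sums over a gene, run or window and for the calls made with them. A position was listed only from a coverage of 6 upward in Tdg cells and, for wt cells, of 4 upward in serum-2i and 3 in serum, so an absent row is an unknown value below the minimum or lost to another filter, and not a value of 0. Summed listed coverage came to 12348368 for Tdg cells of serum-2i and 7486660 for Tdg cells of serum. It came to 890158 for wt cells of serum-2i and 43172 for wt cells of serum.

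Because the choice needs no wt row, the higher coverage of Tdg over wt at these sites is a property of the choice and is given without a test. Just inside the threshold, 2503 sites (1.41%) had the minimum coverage of 6 in at least 1 Tdg group, and 17 had it in both. The sites at the minimum in serum-2i had a median of 13.5 in serum, and those at the minimum in serum had a median of 14.5 in serum-2i. Just outside it, 9278 positions were listed at 6 in serum-2i Tdg alone and 3405 at 6 in serum Tdg alone. A further 745 positions had both Tdg rows, with medians of 22 in serum-2i and 20 in serum, and failed only through a wt row at its minimum.

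The sequences of the promoter windows that held most shared Tdg-only sites are shown first, because they give the letters around the modified CGs. Each window runs from 250 bases before to 50 bases after an annotated transcription start, is read 5′ to 3′ on the strand of the gene, and was taken from RefSeq (GRCm38.p6, the assembly of mm10). Capitals mark the CGs that were shared Tdg-only sites, and the other CGs are in lower case. Gm35290 and Gm51871 are long non-coding RNA genes, Pramel1 belongs to the PRAME family of mostly germline-expressed genes, and Gpat2 encodes a mitochondrial glycerol-3-phosphate acyltransferase.
Gm35290, chr17:28007231-28007530, minus strand: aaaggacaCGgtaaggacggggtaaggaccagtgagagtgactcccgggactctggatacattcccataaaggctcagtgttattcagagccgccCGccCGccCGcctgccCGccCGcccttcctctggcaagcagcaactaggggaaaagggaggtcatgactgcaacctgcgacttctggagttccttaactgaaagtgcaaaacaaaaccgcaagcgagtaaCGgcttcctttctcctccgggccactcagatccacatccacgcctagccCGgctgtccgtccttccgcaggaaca
Gm51871, chr11:94351956-94352255, plus strand: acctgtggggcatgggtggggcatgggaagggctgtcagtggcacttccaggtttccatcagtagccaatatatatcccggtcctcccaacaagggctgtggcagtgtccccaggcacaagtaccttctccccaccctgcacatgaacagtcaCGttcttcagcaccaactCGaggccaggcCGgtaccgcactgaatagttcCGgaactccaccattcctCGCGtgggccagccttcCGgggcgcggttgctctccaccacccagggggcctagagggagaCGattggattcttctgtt
Pramel1, chr4:143394191-143394490, plus strand: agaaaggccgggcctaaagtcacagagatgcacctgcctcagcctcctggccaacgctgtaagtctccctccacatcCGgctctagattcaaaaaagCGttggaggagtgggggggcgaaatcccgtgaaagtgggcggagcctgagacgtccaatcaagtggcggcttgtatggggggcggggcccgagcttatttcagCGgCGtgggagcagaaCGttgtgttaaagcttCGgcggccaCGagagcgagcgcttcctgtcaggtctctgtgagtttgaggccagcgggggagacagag
Gpat2, chr2:127424949-127425248, plus strand: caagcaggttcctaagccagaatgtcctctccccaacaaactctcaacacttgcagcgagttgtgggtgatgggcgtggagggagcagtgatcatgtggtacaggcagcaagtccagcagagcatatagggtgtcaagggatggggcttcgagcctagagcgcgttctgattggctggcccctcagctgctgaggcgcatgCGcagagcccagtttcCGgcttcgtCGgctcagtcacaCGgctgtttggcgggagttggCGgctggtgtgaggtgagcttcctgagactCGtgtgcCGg

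Gm35290 and Gm51871 held 8 shared Tdg-only sites each, among 18 and 12 CGs of their windows. Pramel1 and Gpat2 held 7 each, among 20 and 15 CGs, as did the windows of Gm20052, Gm52535 and Gm16252. In the Gm35290 window the run of ccCG repeats from 155 to 135 bases before the start held 5 of the sites, with coverages of 8.5, 12.5, 30.5, 15 and 9.5 in serum-2i against 17, 12, 26, 28.5 and 26.5 in serum. Of these 5 sites, 3 were lower and 2 higher in serum-2i on unscaled coverage. The Pramel1 sites had 21, 8.5, 10, 19, 8.5, 22.5 and 29.5 in serum-2i against 52, 29, 32.5, 42.5, 23, 40.5 and 66 in serum. All 7 were lower in serum-2i on either scale, and the 2 sets of values overlapped only between 23 and 29.5. The Gpat2 sites had 14, 12.5, 40.5, 45.5, 18.5, 40.5 and 20 in serum-2i against 6.5, 7.5, 28, 30.5, 17, 40 and 23.5 in serum. On unscaled coverage 6 of 7 were higher in serum-2i. As a share of each group's summed coverage, a scale explained below, 5 of 7 were lower in serum-2i and the log2 ratio over the window was -0.40 (95% counting interval -0.62 to -0.18).

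Among small RNA genes, 14 of 919 autosomal miRNA hairpins held 19 shared Tdg-only sites, and Mir1897 held 3, the most. Its hairpin was picked for display after the values were seen, and capitals again mark the sites.
Mir1897, chr3:34638464-34638542, plus strand: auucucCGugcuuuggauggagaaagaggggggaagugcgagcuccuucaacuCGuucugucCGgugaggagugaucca

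Coverage at its 3 sites was 19.5, 23.5 and 37 in serum-2i against 52.5, 21.5 and 43 in serum. Mir181d, Mir6387 and Mir671 held 2 sites each.

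The shared Tdg-only sites were 90.2% of the 196610 autosomal positions listed in both Tdg groups. They were 26.0% of the 683575 positions of serum-2i Tdg and 47.7% of the 371703 positions of serum Tdg. Positions in both Tdg groups that also had a wt row numbered 19176. Positions of serum-2i Tdg alone numbered 448701 and positions of serum Tdg alone 170656, and these are the classes set beside the shared sites below.

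Median coverage at the shared sites was 18 in serum-2i (quartiles 12 and 29) and 17.5 in serum (quartiles 11.5 and 29). The highest values were 452 in serum-2i and 297.5 in serum. At positions of both Tdg groups with a wt row, the medians were 28 in serum-2i and 18 in serum. Positions of a single medium had a median of 12, both for serum-2i Tdg alone and for serum Tdg alone.

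The deeper a site was covered in one medium, the more often it was listed in the other. Among serum-2i Tdg positions without a wt row, the share also listed in serum Tdg was 13.0% at coverages from 6 to under 8 and 86.3% (95% interval 84.4 to 88.0) at 96 or more. Among serum Tdg positions without a wt row, the share also listed in serum-2i Tdg was 31.6% in the lowest class and 96% (95.1 to 96.7) in the highest. Whether a site counted as shared thus moved with its coverage across the whole range, and the part of coverage in the differences between classes was not tested.

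**Figure D1:**
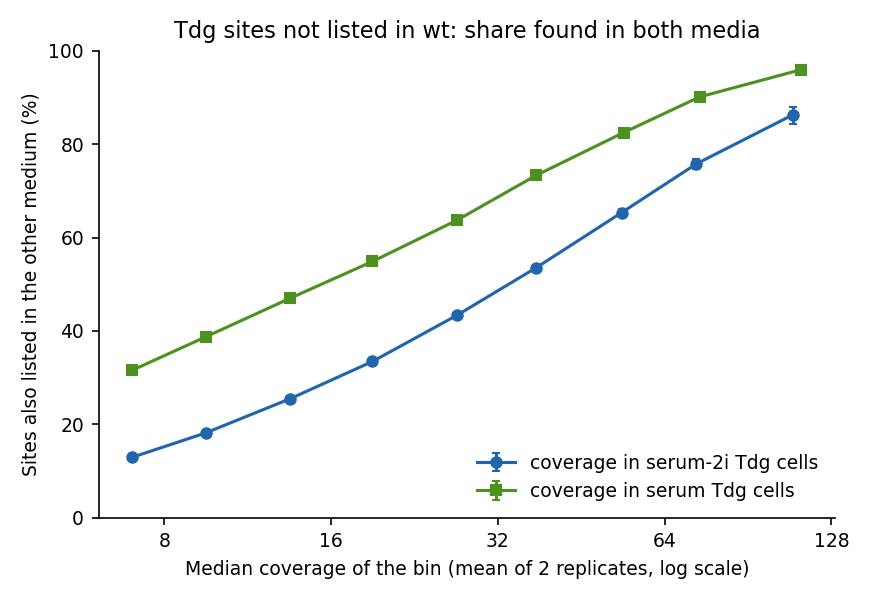
Percent of positions without a wt row that were also listed in the other Tdg group (vertical axis) by coverage in the first (horizontal axis, log scale), for serum-2i Tdg and serum Tdg, with exact binomial 95% intervals. The share climbs from 13.0% to 86.3% in serum-2i Tdg and from 31.6% to 96% in serum Tdg.

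Coverage in the media was compared as the share of each group's summed coverage. The shared sites took 33.4% of the serum-2i Tdg total against 57.0% of the serum Tdg total, a log2 ratio of -0.77 (95% counting interval -0.77 to -0.77). This ratio follows from the totals: serum-2i Tdg had more listed positions, so each took a smaller share. Without scaling every log2 ratio is higher by 0.72, and the sum over the shared sites then differed by -0.05 on the log2 scale. Directions between media are therefore given on the share scale and, where they matter, also on the unscaled coverage. Counts of the sites of a gene or run that were lower in serum-2i are on unscaled coverage.

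By site, the log2 ratio of shares, serum-2i over serum, had a median of -0.72 and quartiles of -1.47 and 0.03, and on unscaled coverage the median was 0. A site was called where its shares differed by at least 2-fold and the 95% interval excluded no difference. By this rule 10813 shared sites (6.09%) were higher in serum-2i, where 6.95% of all positions listed in both Tdg groups were, and 70250 (39.6%) were lower, where 38.3% of all such positions were. The shared sites made up most of that background, so the shares could not differ much. On unscaled coverage 33436 were higher and 33389 lower. Across the shared sites the coverages of the 2 media had a Spearman correlation of 0.239, a description over positions that share libraries and reads. At positions with a wt row besides, the median log2 ratio was -0.25, with 14.9% higher and 25.9% lower.

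**Figure D2:**
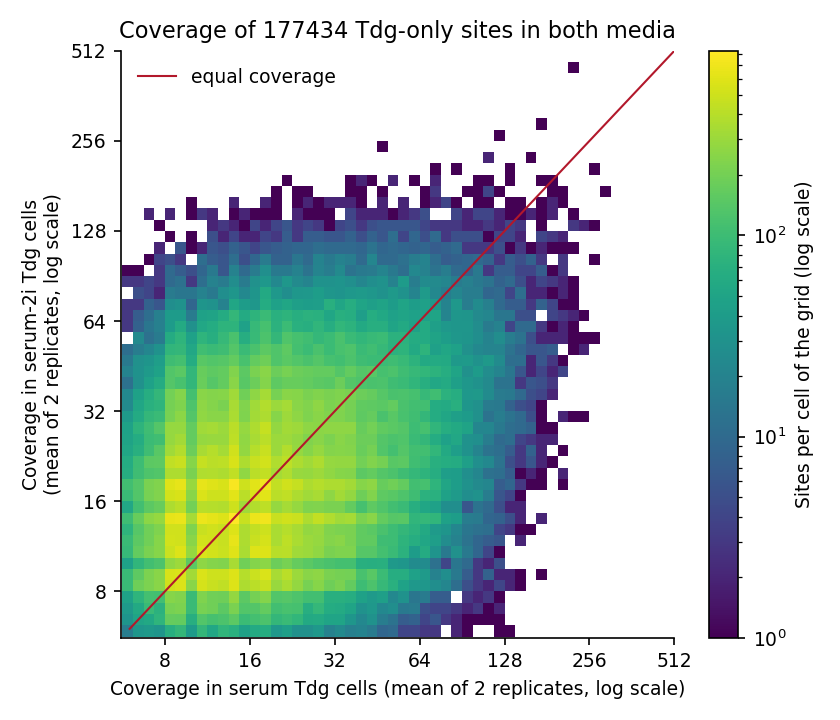
Number of shared Tdg-only sites by coverage in serum Tdg (horizontal) and serum-2i Tdg (vertical), both on log scales. Colour gives the number of sites per cell of the grid, and the red line is equal coverage. The fullest cells lie at or below the medians of 18 in serum-2i and 17.5 in serum, and sites scatter broadly to both sides of the line.

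The site with the highest summed coverage lay at chr11:3193428 within Sfi1, which encodes a centrin-binding protein of the centrosome, with 452 in serum-2i and 233.5 in serum. The next, at chr8:120575183 within Gse1, had 199 in serum-2i and 273 in serum. A site at chr4:133263110, 23 bases from the span of Sytl1, had 168.5 in serum-2i and 297.5 in serum. Of these 3 sites only the one in Sfi1 was higher in serum-2i. The site at chr6:7831047, 14177 bases from C1galt1, had 294.5 in serum-2i and 167 in serum, and the one at chr11:106568511 within Tex2 had 269.5 in serum-2i and 126.5 in serum. The sites at chr9:121797991 within Ccdc13 (135 in serum-2i, 263 in serum), at chr6:99739718 near Prok2 (137.5 in serum-2i, 250 in serum) and at chr1:74898207 within Cryba2 (128 in serum-2i, 255 in serum) went the other way. The 8 sites were thus divided, with 3 higher and 5 lower in serum-2i on unscaled coverage.

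The shared sites, like the positions of the other classes, were mostly found inside genes. Of them 58.0% (95% interval 57.7 to 58.2) lay in protein-coding spans. The other classes had 61.7% with a wt row, 55.6% for serum-2i Tdg alone and 60.4% for serum Tdg alone. Of the shared sites 53.1% lay in the interior over 1 kb from any end, 8.48% in spans of long non-coding RNA genes only, and 32.9% outside every gene span. The share of all autosomal CGs that lies inside genes was not determined. The interior share was 57.2% for positions of both Tdg groups with a wt row, 53.1% for serum-2i Tdg alone and 49.5% for serum Tdg alone. The classes differed most near gene ends: 8.17% (8.05 to 8.30) of shared sites lay within 1 kb of a protein-coding end, against 7.04% (6.68 to 7.41) of positions with a wt row, 4.32% (4.26 to 4.38) of serum-2i Tdg alone and 17.4% (17.2 to 17.6) of serum Tdg alone. Sites within a gene share reads, so these intervals are too narrow.

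Ends were split by strand where the reference gave it, for 16457 of 20665 genes on 18 autosomes (chromosome 18 was not used here). Within 1 kb of a 5′ end lay 3.44% of shared sites, against 2.30% with a wt row, 1.46% of serum-2i Tdg alone and 10.2% of serum Tdg alone. Within 1 kb of a 3′ end lay 3.40% of shared sites, against 3.62% with a wt row, 2.21% of serum-2i Tdg alone and 4.11% of serum Tdg alone. The shared sites therefore lay between the single-medium classes at 5′ ends, where the gap was widest, and at 3′ ends the 4 classes lay closer together.

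**Figure D3:**
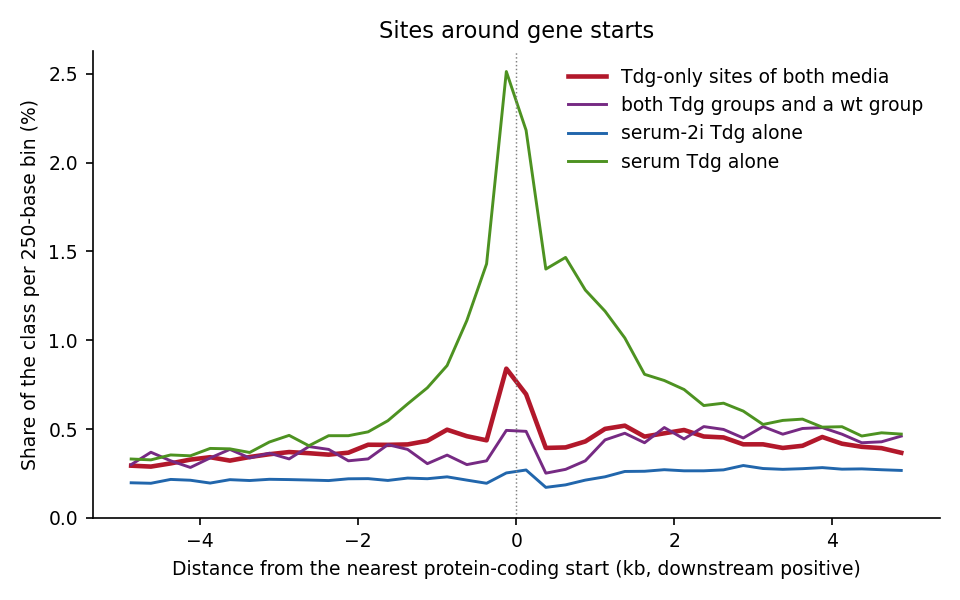
Percent of the sites of each class per bin of 250 bases (vertical axis), for shared Tdg-only sites and the 3 other classes. The horizontal axis is the distance in kb from the nearest protein-coding transcription start, with the direction of transcription to the right. Serum Tdg alone lies highest near starts, with 12.2% within 1 kb, and the shared sites follow with 4.15%.

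Around the annotated transcription starts of protein-coding genes, 4.15% of shared sites lay within 1 kb. This compares with 2.80% of positions with a wt row, 1.73% of serum-2i Tdg alone and 12.2% of serum Tdg alone. In bins of 250 bases the shared sites were most frequent just before the start, with 0.84% between 250 bases before it and the start and 0.70% in the 250 bases after it. From 500 to 250 bases before the start the share was 0.44%.

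The promoter sequences allowed the sites to be counted per CG. In the autosomal promoter windows, 3008 of 344302 CGs (0.874%) were shared Tdg-only sites, against 0.0636% listed in both Tdg groups and a wt group, 0.913% listed in serum-2i Tdg alone and 2.00% in serum Tdg alone. The share depended on how many CGs the window of 300 bases held. It was 2.09% in windows with 1 to 4 CGs, 3.78% (3.58 to 3.99) with 5 to 9, 1.53% with 10 to 19, 0.180% with 20 to 29 and 0.00986% (12 of 121710 CGs) with 30 or more. Serum-2i Tdg alone also had its highest share with 5 to 9 CGs (4.43%), whereas serum Tdg alone had 4.41% with 5 to 9, 4.50% with 10 to 19 and 1.58% with 20 to 29. CG-rich windows, the CG islands of most housekeeping and developmental promoters, thus held few shared sites per CG. Of 31396 windows 2139 (6.81%) held a shared site, and 40 held at least 5.

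**Figure D4:**
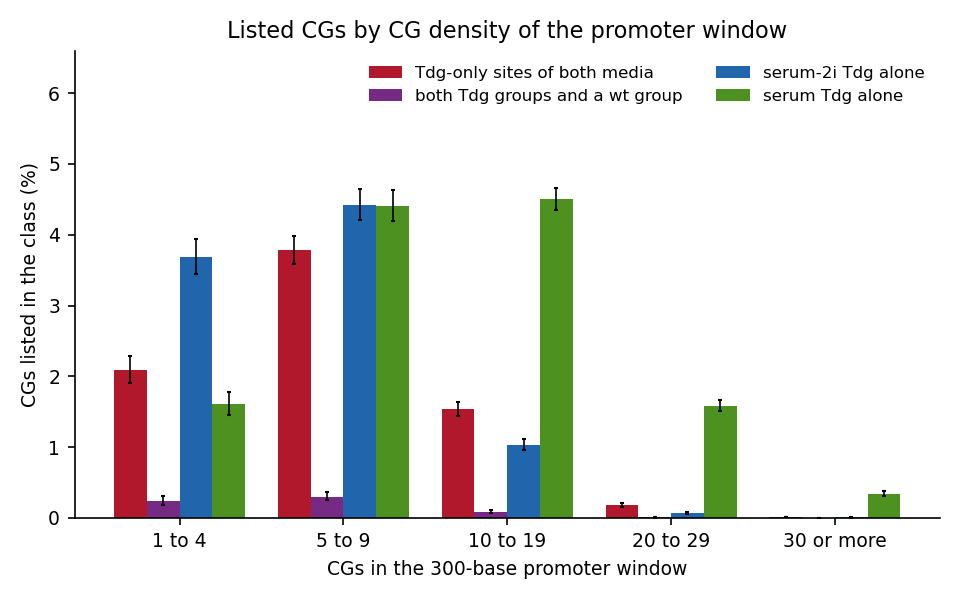
Percent of CGs (vertical axis) that belonged to each class, by the number of CGs in the promoter window of 300 bases (horizontal axis), with exact binomial 95% intervals. The shared Tdg-only sites peak at 3.78% in windows with 5 to 9 CGs and fall to 0.00986% at 30 or more, while serum Tdg alone stays at 4.50% in windows with 10 to 19.

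The base before the modified CG also differed from that of other promoter CGs. Read on both strands, it was C at 46.8%, A at 24.6%, T at 18.1% and G at 10.6% of shared sites, against 34.3% C, 14.3% A, 14.2% T and 37.2% G over all CGs of the windows. In windows with 5 to 9 CGs alone, the shares were 45.3% C and 10.2% G at shared sites against 31.7% C and 25.5% G over all CGs, so G before the CG was scarce at matched CG number too. The single-medium classes had 39.6% C and 13.7% G for serum-2i Tdg alone, and 46.2% C and 18% G for serum Tdg alone. The order ccCG is seen in the printed Gm35290 window, but some of the printed Pramel1 and Gpat2 sites have G before the CG. The cause of the difference from other promoter CGs was not tested.

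Coverage in the media differed with place. Within 1 kb of a 5′ end the shared sites had median coverages of 14 in serum-2i and 20 in serum, a median log2 ratio of -1.22 (-0.50 unscaled), and 57.7% were called lower. Within 1 kb of a 3′ end the medians were 16.5 in serum-2i and 18.5 in serum, with a median log2 ratio of -0.90 (-0.18 unscaled). In gene interiors they were 18 in serum-2i and 17.5 in serum (-0.72, 0 unscaled), and outside genes 18 in serum-2i and 17 in serum (-0.66, 0.06 unscaled). Sites at 5′ ends thus had the lower coverage in serum-2i on both scales, whereas the interior and intergenic sites did not on the unscaled one.

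Shared sites lay close together. The median distance to the next one was 898 bases, 28.0% had the next within 100 bases, and 73.3% had another on either side within 1 kb. Another position of its own class lay within 1 kb of 20.8% of positions with a wt row, of 75.5% of serum-2i Tdg alone and of 80.1% of serum Tdg alone, classes of unequal size. A wt-listed position lay within 1 kb of 37.5% of shared sites, 32% of serum-2i Tdg alone and 31.1% of serum Tdg alone. The 130028 sites with a neighbour had medians of 17.5 in serum-2i and 19 in serum, and the 47406 without one had 18.5 in serum-2i and 14 in serum. Log2 ratios of adjacent sites had a Spearman correlation of 0.652 at 1 to 20 bases, 0.240 at 501 to 1000 bases and 0.0671 at 20001 to 100000 bases. Adjacent CGs share reads, so these correlations are a description.

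Runs of at least 10 shared sites with gaps of at most 100 bases numbered 33 and held 364 sites (0.205%) in stretches of 150 to 598 bases, 25 of them inside a protein-coding span. On the share scale 21 runs were called lower in serum-2i, 12 lay between and 0 were higher. The 63.6% called lower stands beside 64.4% of the 45 runs formed in the same way from all positions listed in both Tdg groups, of which 0% were higher. On unscaled coverage 9 of the 33 runs were called lower and 0 higher, and the unscaled share over the 45 background runs was not determined. The longest by sites, at chr8:4404796-4405228 and 44776 bases from Ccl25, held 15 sites with coverages of 13 to 48.5 (median 24.5) in serum-2i and 8 to 49.5 (median 21.5) in serum. The groups overlapped almost fully. The run at chr1:189912999-189913596 in Smyd2, which encodes a lysine methyltransferase, held 13 sites with 7.5 to 58 (median 16.5) in serum-2i and 11 to 136.5 (median 30) in serum. There the log2 ratio was -1.88 (-2.04 to -1.73), and 11 of 13 sites had the lower unscaled coverage in serum-2i. The run at chr17:87640355-87640504 in Epcam, which encodes an epithelial adhesion protein found on embryonic stem cells, packed 13 sites into 150 bases, with 7.5 to 52.5 (median 25.5) in serum-2i and 6 to 54.5 (median 17) in serum, and its log2 ratio was -0.89. The runs at chr15:97802442-97802898 in Hdac7, a histone deacetylase gene, and chr5:135107803-135108306 in Mlxipl, which encodes a glucose-responsive transcription factor, had 13 sites each and log2 ratios of -1.03 and -1.48.

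Along the chromosomes the shared sites were densest on chromosome 11, with 130 per Mb, and sparsest on chromosomes 3 and 14, with 47.2 per Mb. Their share of the positions listed in either Tdg group was 20.7% over all autosomes and ranged between 16.8% on chromosome 13 and 22.9% on chromosome 4. In windows of 100 kb, the window chr6:52200001-52300000 over the Hoxa cluster held most, 122 sites, followed by chr11:96300001-96400000 over the Hoxb cluster with 119. Among the next windows were chr4:133000001-133100000 with Fgr and Ahdc1, which held 118 sites, and chr18:75300001-75400000 with Smad7, which held 117. The log2 ratios of summed coverage were -2.10 in the Hoxa window and -2.15 in the Hoxb window, against -1.30 in the window of Fgr and -1.12 in that of Smad7. The Hox windows also held 585 and 510 positions of either Tdg group, so shared sites made up 20.9% and 23.3% there, close to the autosomal share, and 36.8% and 34.7% in the windows of Fgr and Smad7.

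A shared site was found in 12286 of 20665 autosomal protein-coding genes (59.5%), with a median of 4 sites in those genes. Genes with most sites were long: Gse1 held 283, Zfhx3 182, Msi2 151, Casz1 139, Ephb2 138, Macrod1 137, Rnf220 132, Sh3pxd2a 124, Foxn3 118 and Nav2 117. Gse1 encodes a protein of histone deacetylase complexes, Zfhx3, Casz1 and Foxn3 encode transcription factors, Msi2 an RNA-binding protein, Ephb2 a receptor tyrosine kinase for ephrins and Rnf220 a ubiquitin ligase. The Gse1 sites ranged from 6 to 199 (median 16.5) in serum-2i and from 6 to 273 (median 19) in serum, and 154 of 283 had the lower unscaled coverage in serum-2i. Of the Macrod1 sites 47.4% also lay in the span of Flrt1 and count for both genes.

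Per kb of span, the genes highest among those with at least 10 sites included Tlx1 with 3.36, Tnfrsf1a with 3.13, Gtpbp6 with 2.98, Dlx5 and Klf4 with 2.81, Lrrc4 with 2.76 and Nccrp1 with 2.65. Tlx1 and Dlx5 encode homeobox factors, Tnfrsf1a a receptor for tumour necrosis factor and Klf4 a factor of the naive pluripotency network. The 15 Klf4 sites had 6.5 to 41 (median 10.5) in serum-2i against 8 to 132 (median 33.5) in serum. Coverage was lower in serum-2i at 13 of the 15, and the log2 ratio of shares was -2.12 (-2.28 to -1.96, and -1.39 unscaled). All 10 Lrrc4 sites also lay in the span of Snd1, and 76.9% of the Gtpbp6 sites in that of Plcxd1.

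Where a gene had at least 50 positions listed in either Tdg group (2744 genes), a median of 21.3% of them were shared sites. The share was highest in Git1 (55.8%), Map1a (52.2%), Fgfr4 (51.8%), Adamts14 (48.3%), Sidt2 (48.3%) and Gne (48.1%). Map1a encodes a microtubule-associated protein of neurons, Fgfr4 a fibroblast growth factor receptor and Gne an enzyme of sialic acid synthesis. It was lowest in BC052040, Egfem1, Kcnip4, Nid1 and Nrxn3, all with 0 shared sites, and in Csrnp3 with 1.32%. Nrxn3, a presynaptic adhesion gene of 1612 kb, had 49 positions in serum-2i Tdg alone, and Nid1, a basement membrane gene of 74.7 kb, had 44. Some genes with many serum-2i Tdg positions thus held no shared site.

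Of all genes with at least 10 shared sites (3781, protein-coding or not), 0 were called higher in serum-2i by summed coverage, where 0.0237% of genes with at least 10 positions listed in both Tdg groups were. Lower were 1399 (37.0%), where 34.3% of those genes were. The median log2 ratio over genes was -0.82 (-0.10 unscaled), and unscaled coverage gave 90 higher (2.38%) and 274 lower (7.25%). The unscaled shares over the background genes were not determined. The highest ratios of protein-coding genes were Lrmp with 0.98 (0.83 to 1.14), Cfap61 with 0.77, Ak4 with 0.74, Atp8a2 and Mtmr3 with 0.72, Cdkal1 with 0.66, Daam1 with 0.63 and Dync1i1 with 0.62. Cfap61 encodes a protein of cilia and flagella, Ak4 a mitochondrial adenylate kinase, Atp8a2 a phospholipid flippase and Dync1i1 a dynein subunit. The 16 Lrmp sites had 9.5 to 112 (median 30.8) in serum-2i against 7.5 to 24.5 (median 13.8) in serum. Coverage was lower in serum-2i at 1 of the 16 sites unscaled, and 7 of the 16 took a smaller share of the serum-2i total.

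The lowest ratios of protein-coding genes were Hoxa6 with -2.76 (-2.94 to -2.57), Wnt10b with -2.74 (-2.86 to -2.62), Efna2 with -2.70, Ankrd63 with -2.69, Lrrc4b with -2.67, Fgf8 with -2.64, Tlx1 with -2.56 and Dhh with -2.52. Wnt10b, Fgf8, Dhh and Efna2 encode signalling ligands of the WNT, FGF, Hedgehog and ephrin families, and Hoxa6 and Tlx1 encode homeobox factors. The 19 Wnt10b sites had 8.5 to 36 (median 15.5) in serum-2i against 19 to 210 (median 67.5) in serum, and all 19 were lower in serum-2i. The 18 Dhh sites had 7.5 to 28 (median 15) in serum-2i against 9.5 to 136.5 (median 53.8) in serum, lower at 16 of 18. All 10 Hoxa6 sites also lay in the span of Hoxa3. All 8 genes were called lower on unscaled coverage too.

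The ratio moved with gene length. Among protein-coding genes shorter than 10 kb the median log2 ratio was -1.54 (-0.82 unscaled), and 98 of 116 were called lower (45 unscaled). The medians were -1.17 at 10 to 30 kb, -0.84 at 30 to 100 kb and -0.52 (0.20 unscaled) at 100 kb or more, where 118 of 1033 were called lower and 0 higher. On unscaled coverage that balance turned at 100 kb or more, with 5 lower and 48 higher. More of a short span lies near an end, so length and place cannot be told apart in these medians.

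Genes grouped by role are described by counts beside those over all protein-coding genes, of which 1165 of 3238 (36.0%) were called lower and 0 higher, with a median log2 ratio of -0.81 (-0.08 unscaled). On unscaled coverage 213 of the 3238 (6.58%) were called lower and 76 (2.35%) higher, and the unscaled counts of the lists stand beside these. Of list genes with at least 10 sites, 0 were called higher on the share scale. Counts below are over genes with at least 10 sites, and single genes with fewer sites are named only with their own values.

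The Hox genes, which set positional identity along the body axis, lay at the low end. Shared sites were found in 37 of 39, and all 11 with at least 10 sites were called lower on both scales, with a median log2 ratio of -2.33 (-1.61 unscaled). The 62 Hoxb3 sites had 6 to 56 (median 12) in serum-2i against 6 to 215 (median 39) in serum. Coverage was lower in serum-2i at 57 of the 62. The 51 Hoxa3 sites had 6 to 60.5 (median 14) in serum-2i against 11.5 to 120 (median 36) in serum, lower at 47 of 51, with a log2 ratio of -2.26 (-2.34 to -2.18). The ratio of Hoxc4, -1.95 (-2.08 to -1.82), was the least low of the 11. Spans of one cluster overlap, so their sites are partly the same. Positions of either Tdg group summed over the Hox genes came to 1891, where a position in overlapping spans counts for each gene. Of that sum 392 (20.7%) were shared, 41 were of serum-2i Tdg alone and 1389 of serum Tdg alone. The share was that of all protein-coding genes (20.9%), while the rest lay nearly all in serum Tdg.

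Lineage regulators outside the Hox clusters, transcription factors that specify tissues, had shared sites in 51 of 62 genes, and 19 of the 21 with at least 10 sites were called lower (9 on unscaled coverage), with a median log2 ratio of -1.62 (-0.90 unscaled). Pax7 held most, 56 sites, with 7.5 to 100 (median 17.5) in serum-2i against 7 to 184.5 (median 23.5) in serum and a log2 ratio of -1.25. Gata4, a regulator of heart and endoderm, had 49 sites with 7 to 78.5 (median 14.5) in serum-2i against 6.5 to 147.5 (median 33) in serum, and a log2 ratio of -1.81. Gata2, a regulator of blood formation, was the lowest with -2.45 (-2.57 to -2.34): its 28 sites had 6 to 68 (median 10.3) in serum-2i against 13 to 169.5 (median 41) in serum, lower at 27. Meis2, a cofactor of Hox proteins, was the highest with -0.21 (0.51 unscaled), and it and Gata3 were the 2 not called.

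Polycomb genes, whose products hold developmental genes silent, had 25.3% of Tdg-listed positions shared, and 5 of 7 genes were called lower (3 unscaled), with a median log2 ratio of -1.45. The members named moved unequally. Cbx6 and Cbx2, which encode chromobox subunits, had -2.25 and -1.81. Kdm2b, which encodes a protein that binds CG islands and recruits a Polycomb complex, held most sites, 66, with medians of 16.8 in serum-2i and 15.8 in serum and a log2 ratio of -0.84. Jarid2, a cofactor of the methyltransferase complex, had -0.55.

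Signalling pathways lay between. Among WNT genes, whose pathway CHIR99021 activates through GSK3, 6 of 13 were called lower (2 unscaled), with a median of -1.0. The ligand genes Wnt5a, Wnt7b, Wnt11, Wnt3a and Wnt3 had -2.32, -1.50, -1.30, -1.29 and -1.24, and Rspo1, which encodes a secreted enhancer of the pathway, had -1.93. Of genes with fewer than 10 sites, the receptor genes Fzd1, Fzd2 and Fzd7 had -1.45 over 2 sites, -1.23 over 4 and -1.20 over 6. Axin1, which encodes a scaffold of the destruction complex, had -1.65 over 2. Others with fewer than 10 sites were less low or above 0. The receptor genes Lgr4, Lgr5 and Lrp6 had -0.84 over 6 sites, 0.09 over 8 and 0.36 over 9, and Gsk3b had -0.30 over 7. The receptor gene Lrp5 had 0.18 (0.04 to 0.33), the target Axin2 -0.74, and the nuclear effectors Tcf7l1 and Tcf7l2, with 66 and 51 sites, -0.84 and -0.91. Among Hedgehog and Notch genes 7 of 13 were called lower (2 unscaled). The receptors Notch1 to Notch4 had -1.22, -1.23, -1.44 and -1.52, the ligand gene Dhh -2.52, and Gli2, a Hedgehog transcription factor, 0.00. Maml3, a Notch coactivator gene, held most sites, 73, with -0.71.

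Among ERK pathway genes, which act upstream or downstream of the kinase that PD0325901 inhibits, 3 of 9 were called lower and 0 of these on unscaled coverage. Of the receptor genes, Fgfr1 and Fgfr4 were called, with -1.32 and -1.30, and Fgfr2 was not, with -0.80 over 35 sites. Of the inhibitor genes, Spry4 was called, with -1.21, and Spred2 was not, with -0.42 over 41 sites. The adaptor Grb2 had -0.24. Of genes with fewer than 10 sites, Spry1 had -2.07 over 8, Fosl1 -1.83 over 9 and Fgfr3 -1.74 over 4. Fos had -2.85 over 2 and Egr1 -2.48 over 3, and all of these lay at or below -1.02 unscaled. Other small ones were less low or above 0. Dusp4 had -1.06 over 9, Map2k1 -0.27 over 9 and Sos2 0.17 over 8. Shared sites made up 26.6% of the list's Tdg-listed positions. Among BMP and TGF-beta genes 4 of 9 were called lower (0 unscaled). Smad7, an inhibitory SMAD gene, was the lowest with -1.66 over 43 sites, Smad6, with 57 sites, had -0.92, and Smad3 had -0.36.

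Genes of pluripotency with at least 10 sites were mostly between. In the naive list, 158 shared sites lay in 15 of 21 genes (17.0% of Tdg-listed positions), and 1 of 5 genes with at least 10 sites was called lower, Klf4, with the values given above. Esrrb, a nuclear receptor of the naive network, held most, 55 sites with 6 to 71 (median 21) in serum-2i against 7 to 67.5 (median 15) in serum, and a log2 ratio of -0.45 (0.28 unscaled). Lifr, the receptor for LIF, had 34 sites and -0.56, and Stat3, which LIF activates, had 12 sites and -0.22. Nanog held 1 site with 80 in serum-2i and 10 in serum. Tcl1 and Tbx3 of the naive list also held 1 site each and went the other way. Tcl1 had 18.5 in serum-2i against 87 in serum, and Tbx3 had 10 in serum-2i against 23.5 in serum. Sox2 held 0 listed positions. In the primed list Eomes was called lower, with -1.50 (not so unscaled), and Etv5, Lef1 and Etv4 had -0.35, -0.65 and -0.73. Of primed genes with fewer than 10 sites, Fgf5 had -2.40 over 4 (-1.68 unscaled), T -1.62 over 6 and Otx2 -1.14 over 4. Zic2 and Pou3f1, with 1 site each, had -2.38 and -1.81. Less low were Cdh2 with -0.93 over 2, Zic5 with -0.78 over 2 and Dnmt3b with -0.18 over 4. Of the general list only Sall4 had at least 10 sites (22), with -0.68, and Pou5f1 had 5 with medians of 16 in serum-2i and 15 in serum. Others of that list with fewer than 10 sites were spread widely. Lin28a had -1.94 over 4 sites, Lefty1 -1.76 over 4 and Sall1 -1.09 over 8, whereas Nodal had -0.89 over 6 and Tdgf1 0.43 over 2.

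Genes that set and remove DNA methylation had 2 of 7 called lower (0 unscaled): Tet3, an oxidase gene, with -1.25 over 37 sites, and the methyltransferase gene Dnmt3a with -1.0 over 55. Tet1 had -0.64, Dnmt1, the maintenance methyltransferase gene, -0.59 and Dnmt3l -0.56. Tdg itself held 3 sites, with 11 to 61 in serum-2i and 8 to 12 in serum. Of imprinted genes 1 of 8 was called lower, Igf2, a growth factor gene, with -2.51 (-2.71 to -2.32): its 13 sites had 7.5 to 21 (median 10) in serum-2i against 15 to 85.5 (median 31.5) in serum, lower at all 13. Kcnq1 held most, 25 sites, with -0.97, and Slc38a4 was the highest with -0.09. Of extraembryonic markers 3 of 8 were called lower, Eomes, Tfap2a with -1.37 and Tfap2c with -1.14 (0 unscaled), and the basement membrane genes Lama1, Lamb1 and Lamc1 had -0.45, -0.42 and -0.43. Of markers with fewer than 10 sites, Hand1 had -2.35 over 5 (-1.63 unscaled) and Cdx2 -2.23 over 4 (-1.51 unscaled). Gata6 had -1.48 over 4 and Sox7 -1.23 over 3. Krt8 and Sox17, with 1 site each, had -2.32 and -2.10. Elf5 had -0.05 over 4 and Dab2 0.63 over 4.

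The neuronal synapse and adhesion genes, most of them very long, had 12% of 5768 Tdg-listed positions as shared sites, against 20.9% over all protein-coding genes, with 4066 in serum-2i Tdg alone and 606 in serum Tdg alone. Their median log2 ratio was -0.21 (0.52 unscaled), and 3 of 15 were called lower. On unscaled coverage 1 was called lower and 1 higher. Cdh13, a cadherin gene, was the highest with 0.36 (0.24 to 0.48), its 33 sites having 7.5 to 152 (median 17.5) in serum-2i against 6.5 to 35 (median 10) in serum. Gad1, which encodes an enzyme of GABA synthesis, was the lowest with -2.17. Auts2 and Cacna1a held most sites, 83 and 80, with -0.69 and -0.90. The other lists had too few genes with 10 sites for a median: germline genes silenced by methylation had 1 (Tdrd9, 0.36), silent tissue-specific genes 1, fibroblast markers 2 and housekeeping genes 0.

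**Figure D5:**
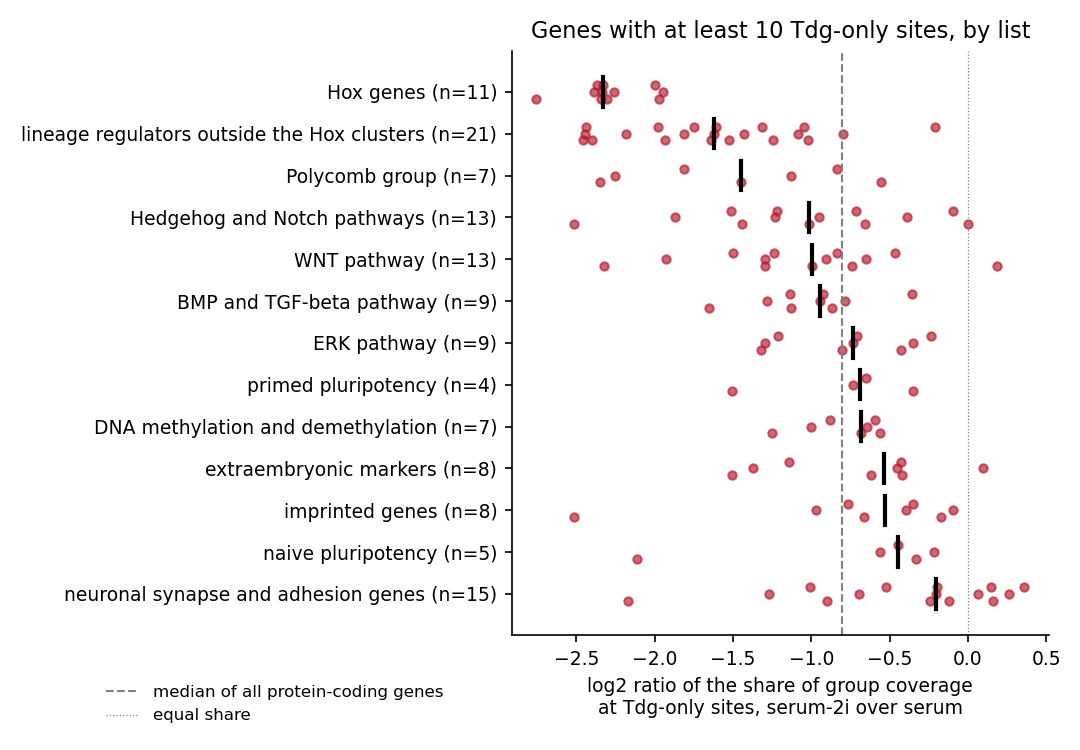
Log2 ratio of the share of group coverage at shared Tdg-only sites, serum-2i over serum (horizontal axis), for each gene with at least 10 sites, by list. Points are genes, thick bars are list medians, the dashed line is the median of all protein-coding genes (-0.81) and the dotted line is an equal share. All 11 Hox genes lie at or below -1.95, and the neuronal genes reach 0.36.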

How the data were processed

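5caC was mapped in DNA of cultured mouse embryonic stem cells. Per the labels' protocols, 5-hydroxymethylcytosine and unmodified CGs were blocked, an engineered SssI methyltransferase exchanged the carboxyl group for an azide tag, and tagged DNA was enriched on streptavidin before Ion Proton sequencing. The authors deposited a coverage signal per CG position and group, on mm10, as the submitters' processing notes name it. The aligner, caller, listing rule and reads per library were not given in the sources used here; summed listed coverage stood in for depth.

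Positions counted from 0: of 14900 listed positions inside promoter windows, 14900 held CG once 1 was added and 0 without it, and all positions printed are counted from 1. Genes and sequences came from RefSeq tables of GRCm38.p6. A log2 ratio compares shares of a group's summed coverage, with an exact conditional Clopper-Pearson 95% interval on the coverage summed over 2 replicates. Shares of sites carry exact binomial intervals. A site or gene (at least 10 sites) was called from 2-fold with the interval excluding 0. Calls of single sites were checked on simulated independent counts of unchanged sites and of sites changed far beyond 2-fold. Calls near 2-fold were therefore not checked. The simulation had no shared or repeated reads and no listing minimum, so it cannot vouch for calls of sums over sites. Counts per gene span were checked against a direct count.

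The sites and the 18 gene lists (470 symbols, all found, 2 by an older symbol) were chosen with earlier results of these data known. Genes named were those with most sites, most sites per kb, the highest and lowest ratios or shares, and per list those with most sites and extreme ratios; some items that met the rule are not reported here. Promoter windows, flanking bases, hairpins, neighbours and gene length were examined after the table was seen, and further list genes were named after their values were seen. Alternatives tried were the scaling, the fold, the minima, the distances and the choice of sites. Python 3.11.15, numpy 2.4.6, pandas 2.3.3, scipy 1.17.1 and matplotlib 3.10.9 were used.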

Additional observations from a re-analysis of the deposited data

How the results depend on the processing

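No paired analysis was possible because the table holds 1 value per group and none per replicate; leaving out a replicate was not run for the same reason. With no wt row allowed within 1 kb, 110922 shared sites remained of 177434. Raw coverage gave a summed log2 ratio of -0.049, 33436 sites higher and 33389 lower, and 90 genes higher and 274 lower, against -0.77, 10813 and 70250, and 0 and 1399 on the share scale. Scaling by the median ratio gave -0.10, 30591 and 35222, and 68 and 316. A 1.5-fold rule gave 17505 sites higher and 84913 lower. Requiring 5 sites per gene gave 14 genes higher and 2868 lower (37.4%) of 7671. Requiring 20 gave 487 lower (34.2%) of 1423, against 37.0% of 3781 at the main minimum. A coverage of at least 10 in both Tdg groups gave a summed log2 ratio of -0.80 and 7.86% of sites near gene ends, where windows of 500 and 2000 bases gave 4.39% and 15.0%. Another shared site lay within 100 bases of 45.8% and within 5000 bases of 88.6%. Gaps of at most 50 and 200 bases gave 7 and 71 runs. These last counts move because the window or gap itself changes. Other alternatives stayed within 1.5 times the main count: 128739 shared sites at a coverage of at least 10, 182781 with wt rows counted from 6, and 939 genes lower of 2625 whose spans overlap no other. Of the 18 list shares, 3 fell beyond their counting interval at a coverage of at least 10, where general pluripotency (27.2%) lay above the ERK list (26.5%).

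The unscaled counts show that the excess of lower over higher sites rests on the scaling, and the order of lists and places does not, since a scaling shifts all ratios alike. The spread between cultures and between replicates is unknown, coverage near the minimum of 6 limits which sites are listed, and neither the control nor the wt values below their minima were analysed here.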
